A study of Rattus norvegicus with 3 samples.

Results

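Genes of the motile cilium were described in the rat basolateral amygdala (BLA) under 3 kinds of housing. The genes were taken by name: every protein-coding row of the table whose symbol starts with Dnah, Dnai, Dnaaf, Dnal, Rsph, Spag, Tekt, Cfap or Drc followed by a digit, with a mean scaled count above 1 over the libraries. The rule also admits Foxj1, which is not analysed here, as is Spag17. It gave 67 rows of the 16775 protein-coding genes that pass the same filter. All 67 protein-coding rows with such a name passed the filter, so no member was lost to it and none lies just outside. The members just inside were Tekt3, with a mean of 2.04, and Cfap58, with a mean of 2.39. The 67 rows stand for 65 genes if the 2 rows of Spag5 are counted once, and so are Cfap58 and Cfap58l1. These last 2 rows have different Ensembl IDs but the same reads, and were taken as 1 gene.

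The motile cilium is a hair-like organelle that beats. Its core, the axoneme, is a ring of paired microtubules around a central pair; dynein arms on the ring slide the microtubules, while radial spokes and nexin links pass on and limit that sliding. In the brain, motile cilia stand in tufts on the ependymal cells that line the ventricles, whereas neurons carry a single primary cilium that does not beat. Transcription factors of the RFX family, which bind a DNA element called the X-box, and FOXJ1 drive the genes of motile cilia.

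The adult male Sprague-Dawley rats were obtained at an age of 8 weeks and carried no other labelled treatment. ER rats (enrichment removal) spent their active cycle in a group cage of 10 with toys for 4 weeks, and were single by day. They were then housed singly at all hours, and had their brains collected 2 weeks after removal. EE rats (environmental enrichment) stayed in such a cage during their active cycle and were single by day, and SH rats (standard housing) of this cohort lived in pairs, so the company a rat kept and its enrichment or removal cannot be told apart in any contrast. RNA from BLA punches of 10 rats was pooled into 1 library per condition, so no difference has a replicate check. Values are scaled counts, which are reads divided by a size factor of the library, and were made from 29558555 reads in ER, 29263063 in EE and 30334384 in SH. A ratio of scaled counts is given with its exact 95% interval (Clopper-Pearson) from the reads, which covers counting error only and compares libraries, not conditions. The 3 contrasts are EEvSH, ERvSH and ERvEE, and any 2 of them share a library.

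The punches held the genes of their labelled tissue: 6 markers of glutamatergic neurons of the BLA and cortex summed to 94789 scaled counts in ER, 94051 in EE and 95508 in SH. Markers of the ventricle lining and the choroid plexus had fewer reads and differed between libraries. The 10 ependymal markers with a row, of 14 listed and with the member Tekt1 among them, summed to 1187 in ER, 1304 in EE and 1207 in SH. Foxj1, Tmem212, Sntn and Fam183b are not analysed here. Ak7, an adenylate kinase of the axoneme and the one of the 10 with the fewest reads, had 1 read in ER, 4 in EE and 1 in SH. The 13 of 17 choroid plexus markers with a row summed to 679 in ER, 552 in EE and 748 in SH. Igf2, named after its values were seen, made up most of that sum with 533 in ER, 398 in EE and 514 in SH, and the other 12 markers summed to 146 in ER, 154 in EE and 234 in SH. Among these 12, Ttr, the thyroid hormone carrier of the choroid plexus, had 0 reads in ER, 4 in EE and 80 in SH, and the potassium channel gene Kcnj13 had 0 reads in ER, 3 in EE and 7 in SH. Ttr made up most of the gap between SH and the other libraries in the sum of the 12. Slc4a5 had 6 reads in ER, 16 in EE and 22 in SH, whereas Prlr had 13 in ER, 21 in EE and 9 in SH. Of the 13 markers, 6 were higher and 7 lower in ERvSH, and 4 were higher and 9 lower in EEvSH. The 8 of 9 tanycyte and subventricular markers with a row summed to 6910 in ER, 6162 in EE and 7433 in SH. The part of such cells in the values below was not tested, and in bulk tissue fewer cells of a type and less RNA per cell cannot be told apart.

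The cilia genes as a group were close to level across the 3 libraries. No member was at 0 in any library. The members summed to 33651 scaled counts in ER, 32702 in EE and 33504 in SH, which gave ratios of 0.976 (0.961 to 0.991) in EEvSH, 1.004 (0.989 to 1.02) in ERvSH and 1.03 (1.01 to 1.05) in ERvEE. The EE library was thus the lowest of the 3, by a few percent. The ependymal markers summed highest in that library and the tanycyte markers lowest, with or without the gene of most reads in each list. Most of the ependymal excess in EE lay in 2 genes, named after their values were seen. Rarres2 had 327 in ER, 409 in EE and 371 in SH, and Tm4sf1 had 175 in ER, 218 in EE and 176 in SH. Single markers did not all follow these sums. In EEvSH, 7 ependymal markers were higher and 3 lower, and 3 tanycyte and subventricular markers were higher and 5 lower. A link of these sums to the members was not tested. Spag9, a scaffold of JNK signalling and motor transport that is known outside the axoneme, made up much of the members' sum, with 10446 scaled counts in ER, 10224 in EE and 10135 in SH. Without the 5 rows of genes known outside the axoneme (Spag4, Spag5, Spag7, Spag9), the remaining 62 rows summed to 21163 in ER, 20397 in EE and 21366 in SH. The EEvSH ratio of these was 0.955 (0.936 to 0.973) and the ERvEE ratio 1.04 (1.02 to 1.06). The median log2 ratio of the 67 members, with a pseudocount of 1, was -0.01 in EEvSH, 0.03 in ERvSH and 0.01 in ERvEE, while that over all 16775 genes was 0 in each contrast.

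Few members differed by much. A member was counted as different in size when its ratio was at least 1.5-fold either way and its interval excluded 1. In EEvSH, 2 members were higher by this rule, Dnah5 and Cfap300, against 1.19% of all genes, and 2 were lower, Dnah1 and Dnai1, against 0.942% of all genes. In ERvSH, 1 member was higher (Dnah5; 0.817% of all genes) and 1 lower (Dnai1; 0.864%). In ERvEE, 0 members were higher (0.775% of all genes) and 1 was lower (Dnai1; 0.924%). Counts of 2 or fewer of 67 are too small to be set apart from these backgrounds. Without the minimum fold, the interval alone excluded 1 in EEvSH for 3 members higher and 9 lower, or 4.48% and 13.4% of the members, against 9.27% and 8.94% of all genes. In ERvSH it did so for 5 higher and 5 lower, 7.46% each, against 7.59% and 7.89%. In ERvEE, 7 were higher and 3 lower, or 10.4% and 4.48%, against 6.47% and 6.5%. The shares in ERvSH lay near the background. Those in EEvSH and ERvEE leaned to lower values in EE, the library that both contrasts share. This lean rests on 9 and 7 members, too few to be set apart from the background. Among the 32 members with a mean from 50 to under 500, the EEvSH shares were 6.25% higher and 3.1% lower. For all genes in that range they were 7.22% and 5.98%.

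**Figure D1:**
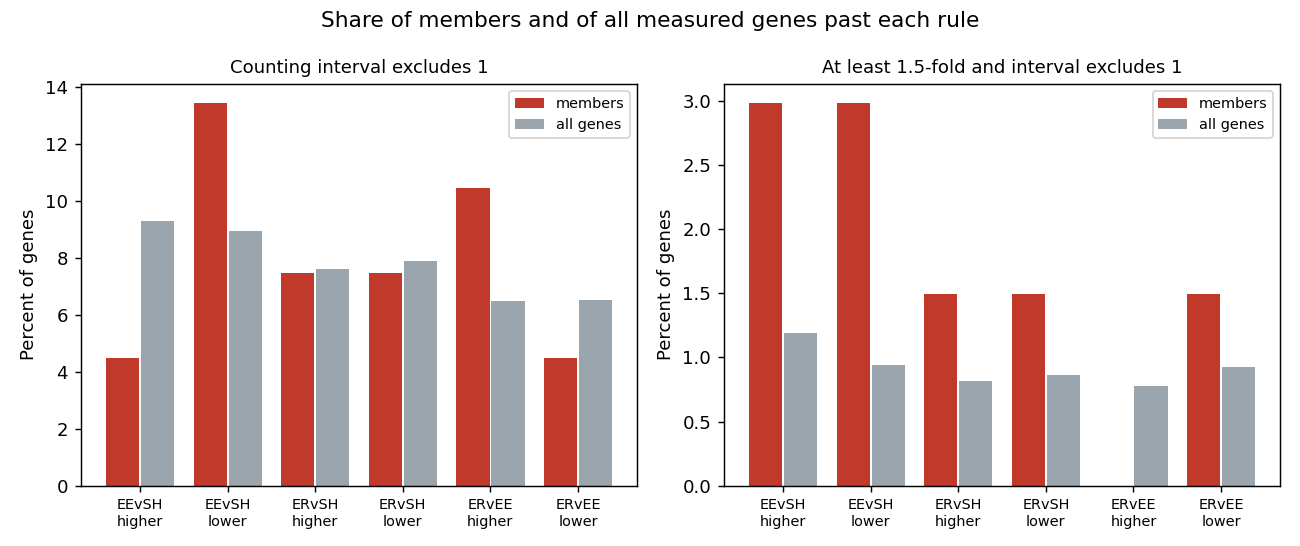
Percent of the 67 members (red) and of all 16775 genes (grey) past each rule, by contrast and direction. On the left, only the interval has to exclude 1. There the members exceed all genes among those lower in EEvSH (13.4%, 9 members, against 8.94%) and higher in ERvEE (10.4%, 7 members, against 6.47%). On the right, where 1.5-fold is required too, each red bar stands for 2 members or fewer.

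Dnai1 was the one member whose interval excluded 1 in all 3 contrasts. Dnai1 (ENSRNOG00000013734) encodes an intermediate chain that anchors the outer dynein arm, and its loss causes primary ciliary dyskinesia in people. It had 40.0 scaled counts in ER (39 reads), 62.0 in EE (60 reads) and 94.6 in SH (95 reads). The ER library was the lowest and the SH library the highest. The ratio was 0.423 (0.284 to 0.620) in ERvSH, 0.656 (0.467 to 0.915) in EEvSH and 0.645 (0.420 to 0.981) in ERvEE. Its partner chain Dnai2 had 5 reads in ER, 3 in EE and 2 in SH, too few to place it in any order.

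The other members past the size rule were an outer arm motor, an assembly factor and an inner arm motor. Dnah5 (ENSRNOG00000048363), a heavy chain of the outer dynein arm, had 36.9 scaled counts in ER, 42.4 in EE and 20.9 in SH. Both the ER and the EE library thus lay above SH, with ratios of 2.03 (1.17 to 3.61) in EEvSH and 1.77 (1.003 to 3.18) in ERvSH. The ERvSH call was lost when the libraries were scaled by their totals. Cfap300 (ENSRNOG00000043410), which helps to assemble dynein arms in the cytoplasm, had 138 scaled counts in ER, 152 in EE and 96.6 in SH. Its ratio was 1.57 (1.21 to 2.05) in EEvSH and 1.43 (1.10 to 1.88) in ERvSH. Dnah1 (ENSRNOG00000026914), an inner arm heavy chain, had only 12 reads in ER, 7 in EE and 19 in SH, and its EEvSH ratio of 0.382 had an interval from 0.136 to 0.950.

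**Figure D2:**
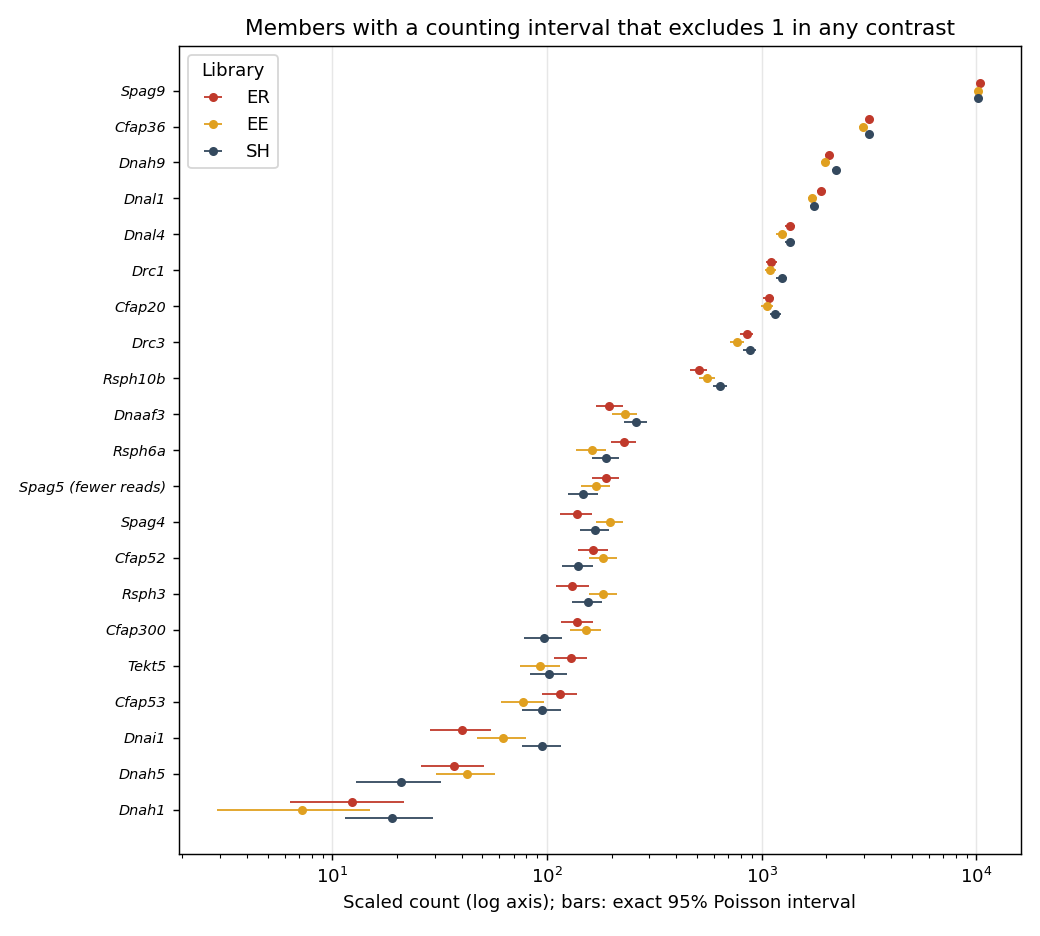
Scaled count (log axis) in the ER, EE and SH libraries for the 21 members whose counting interval excluded 1 in any contrast, with exact 95% Poisson intervals as bars. For Dnai1 (40.0 in ER, 62.0 in EE, 94.6 in SH) the ER and SH bars lie apart, and the EE bar overlaps both. The members with most reads at the top differ little, as Dnah9 does (2064 in ER, 1970 in EE, 2220 in SH).

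The dynein arms carry the motors of the axoneme. Scaled counts are not divided by gene length, so their sizes are not compared between genes here. Dnah9, an outer arm heavy chain, had 2064 scaled counts in ER, 1970 in EE and 2220 in SH. Its ratios were near 1 and had narrow intervals: 0.887 (0.834 to 0.944) in EEvSH and 0.930 (0.875 to 0.988) in ERvSH. The light chain gene Dnal4 had 1352 scaled counts in ER, 1239 in EE and 1350 in SH, with a ratio of 0.917 (0.848 to 0.992) in EEvSH and 1.09 (1.009 to 1.18) in ERvEE. Dnal1, the other light chain, had 1895 in ER, 1717 in EE and 1754 in SH, and was highest in ER, with ratios of 1.08 (1.01 to 1.15) in ERvSH and 1.10 (1.03 to 1.18) in ERvEE. Together the 9 outer arm members gave a summed ratio of 0.931 (0.897 to 0.967) in EEvSH and 1.06 (1.02 to 1.10) in ERvEE. Most of that sum is Dnah9, Dnal1 and Dnal4. The 5 inner arm members summed to 331 in ER, 346 in EE and 301 in SH, with a ratio of 1.15 (0.983 to 1.35) in EEvSH.

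The heavy chains were also counted by direction. Of the 10 Dnah genes, 8 had a higher value in EE than in SH and 8 had a lower value in ER than in EE under each of the 4 scalings tried. Over the whole table, EE exceeded SH for 8440 of 16775 genes, and ER fell short of EE for 8566. The exceptions among the heavy chains in both contrasts, which share the EE library, were Dnah9 and Dnah1. In EEvSH the interval excluded 1 for 1 of the 8, Dnah5, and in ERvEE for 0 of the 8. Among the outer arm genes, Dnah11 had 35.9 scaled counts in ER, 47.6 in EE and 35.9 in SH. The inner arm gene with most counts, Dnah2, had 208 in ER, 213 in EE and 175 in SH, and its interval included 1 in each contrast. Summed without Dnah9, a split made after the values were seen, the heavy chains had 613 scaled counts in ER, 678 in EE and 597 in SH.

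Factors that build dynein arms in the cytoplasm were level as a group, with summed ratios of 0.999 (0.943 to 1.06) in EEvSH, 1.01 (0.957 to 1.07) in ERvSH and 1.01 (0.957 to 1.08) in ERvEE over 8 members. Cfap298, the one with most reads, had 1202 scaled counts in ER, 1139 in EE and 1138 in SH. Dnaaf3, another factor of this step, was lower in ER than in SH. It had 195 in ER, 231 in EE and 260 in SH, with a ratio of 0.750 (0.619 to 0.907) in ERvSH.

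Radial spokes, which carry signals from the central pair to the dynein arms, and the nexin-dynein regulatory complex, the link between neighbouring doublets, both summed lower in EE than in SH. The 8 spoke members summed to 1658 in ER, 1630 in EE and 1774 in SH, a ratio of 0.919 (0.859 to 0.984) in EEvSH. In that contrast 2 of the 8 were higher and 6 lower, and the interval excluded 1 for Rsph10b only. How far the sum rests on that gene was not tested. Rsph10b, a spoke gene, had 509 in ER, 556 in EE and 640 in SH, the order also seen in Dnai1, with a ratio of 0.795 (0.705 to 0.895) in ERvSH and 0.869 (0.773 to 0.976) in EEvSH. The spoke genes did not share a pattern between ER and EE. Rsph6a, the form of the spoke head known from sperm, had 228 in ER, 161 in EE and 187 in SH, with an ERvEE ratio of 1.41 (1.15 to 1.74). Rsph3, of the spoke stalk, had 131 in ER, 182 in EE and 154 in SH, and an ERvEE ratio of 0.722 (0.570 to 0.911), on the other side of 1. Rsph1 and Rsph4a, spoke head genes mutated in primary ciliary dyskinesia, showed no interval that excluded 1. Rsph1 had 151 in ER, 118 in EE and 145 in SH, and Rsph4a had 22 reads in ER, 20 in EE and 33 in SH.

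In the nexin-dynein regulatory complex the 3 members summed to 1991 in ER, 1886 in EE and 2143 in SH, with ratios of 0.880 (0.826 to 0.937) in EEvSH and 0.929 (0.873 to 0.988) in ERvSH. Drc1, the scaffold of the link, had 1110 in ER, 1097 in EE and 1240 in SH. Both the ER and the EE library lay below SH, with ratios of 0.885 (0.814 to 0.961) in EEvSH and 0.895 (0.824 to 0.972) in ERvSH. Drc3 was low only in the EE library. It had 851 in ER, 766 in EE and 879 in SH, with ratios of 0.871 (0.789 to 0.962) in EEvSH and 1.11 (1.005 to 1.23) in ERvEE.

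**Figure D3:**
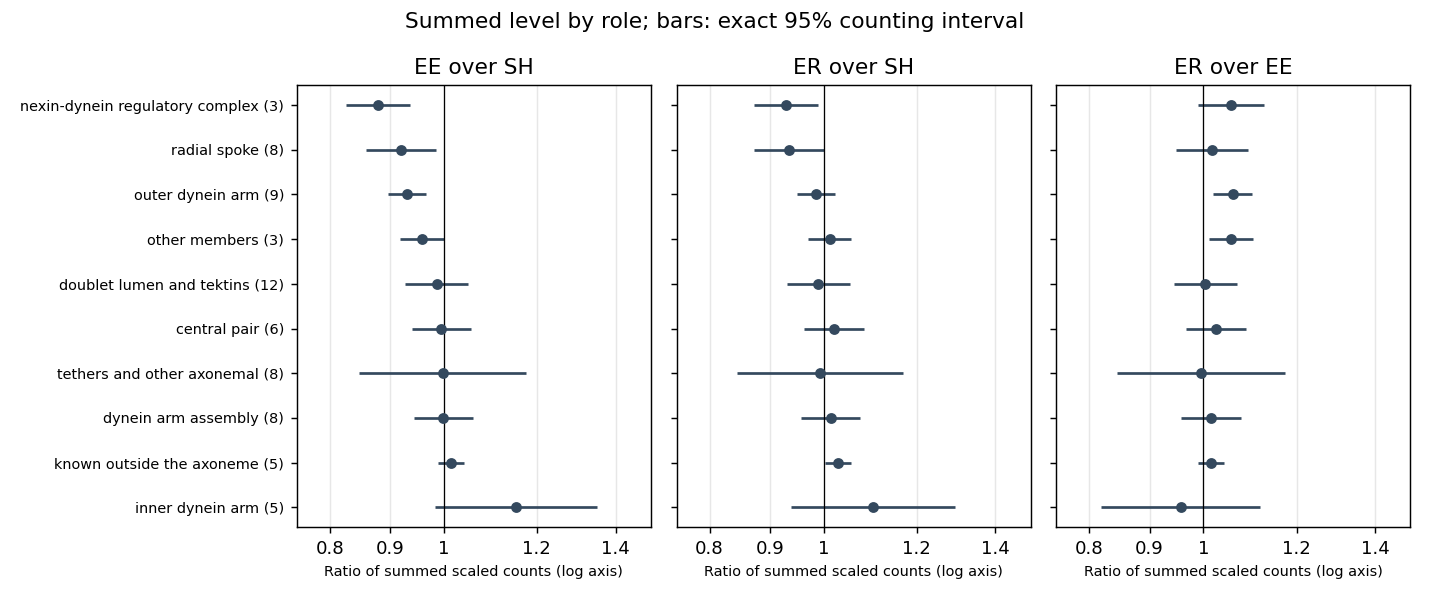
Ratio of summed scaled counts by role (log axis), with the number of members in parentheses and exact 95% counting intervals as bars, for each contrast. The nexin-dynein regulatory complex (0.880), the radial spokes (0.919) and the outer dynein arm (0.931) lie below 1 in EEvSH with intervals that exclude 1, whereas the central pair, the doublet lumen genes and the assembly factors lie at 0.986 to 0.999.

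The central pair and the proteins inside the doublets were level as groups. The 6 central pair members had a summed ratio of 0.996 (0.939 to 1.06) in EEvSH and 1.03 (0.967 to 1.09) in ERvEE. Cfap70, the one with most reads, had 866 in ER, 859 in EE and 841 in SH, and Spag6 had 5 reads in ER, 2 in EE and 3 in SH. The 12 genes of the doublet lumen and tektins, filament proteins of the doublet wall, had summed ratios of 0.986 (0.927 to 1.05) in EEvSH and 1.004 (0.944 to 1.07) in ERvEE. Single genes within this group differed in opposite directions. Cfap52, a protein of the doublet's inner junction, had 164 in ER, 183 in EE and 139 in SH, with an EEvSH ratio of 1.31 (1.05 to 1.65). Cfap53, a protein inside the doublet that is also needed for left-right asymmetry, had 115 in ER, 77.5 in EE and 94.6 in SH, with an ERvEE ratio of 1.48 (1.10 to 2.01). Tekt5 had 129 in ER, 93.1 in EE and 103 in SH, with an ERvEE ratio of 1.39 (1.05 to 1.84), whereas the ependymal marker Tekt1 had 117 in ER, 123 in EE and 107 in SH and no interval that excluded 1. Cfap20, another protein of the inner junction, had 1077 in ER, 1061 in EE and 1156 in SH, with an EEvSH ratio of 0.917 (0.843 to 0.999).

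Outside these roles, Cfap36, a binding partner of the small GTPase ARL3, had 3160 in ER, 2950 in EE and 3163 in SH, with ratios of 0.933 (0.886 to 0.981) in EEvSH and 1.07 (1.02 to 1.13) in ERvEE. Spag4, a SUN-domain protein of the nuclear envelope, had 137 in ER, 196 in EE and 167 in SH, with an ERvEE ratio of 0.700 (0.557 to 0.878). Neither protein is a motor or a strut of the axoneme. The Spag5 row with fewer reads, for astrin of the mitotic spindle, had an ERvSH ratio of 1.27 (1.02 to 1.59), while the row with more reads had 1.03 (0.876 to 1.21). Spag9 had an ERvSH ratio of 1.03 (1.003 to 1.06), and Spag7 had 1406 in ER, 1384 in EE and 1387 in SH. The 46 members with no interval that excluded 1 ranged in EEvSH from 0.811 to 1.25 among the 28 with a mean of at least 50, and from 0.519 to 4.15 among the 18 below it, where counting error sets the limit of what is detectable at this depth. In ERvSH these ranges were 0.757 to 1.19 and 0.601 to 4.12, and in ERvEE 0.744 to 1.28 and 0.496 to 3.97.

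**Figure D4:**
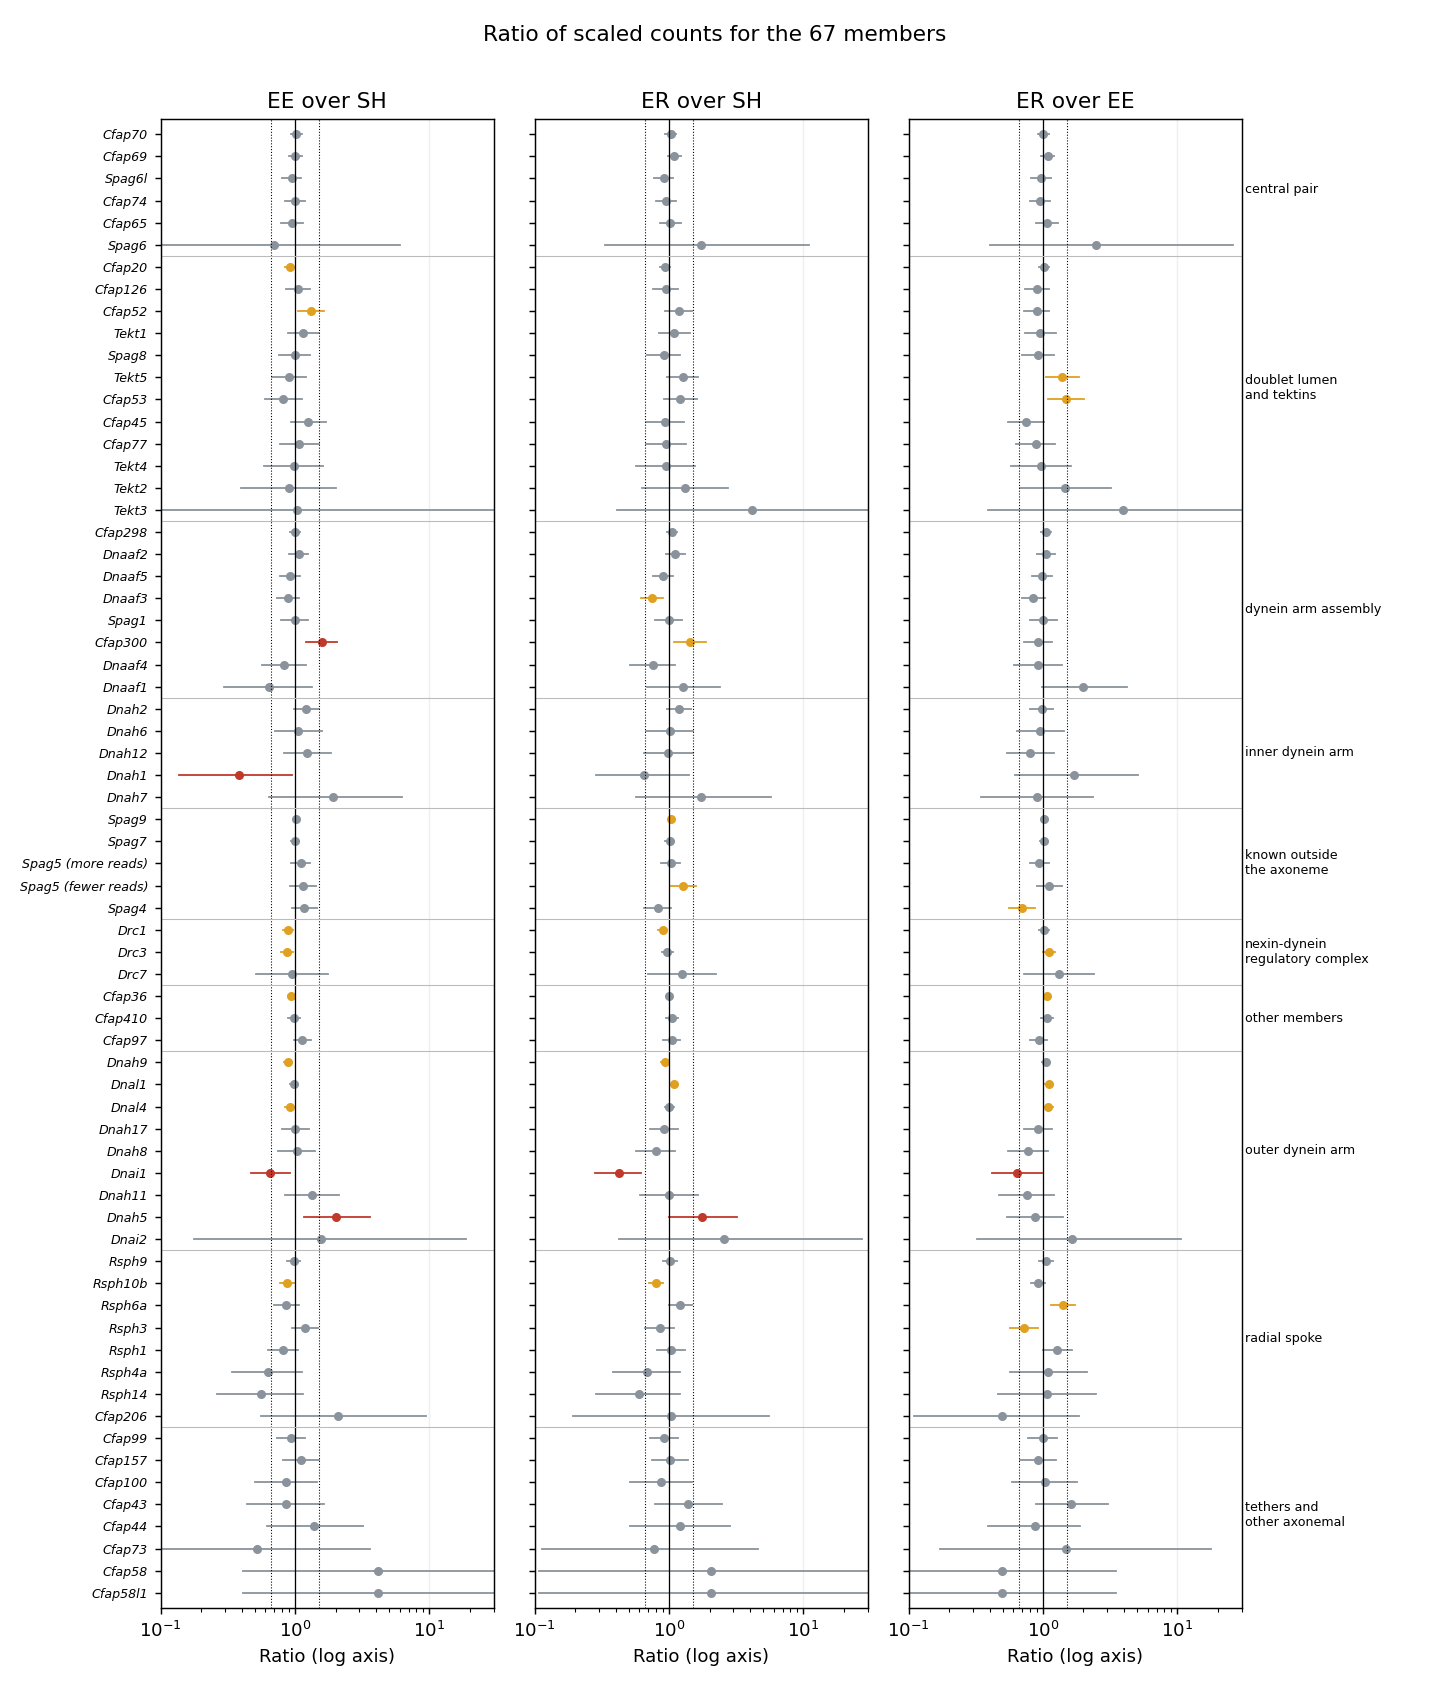
Ratio of scaled counts (log axis) for each of the 67 members, by role, in EEvSH, ERvSH and ERvEE, with exact 95% counting intervals as bars that are cut where they leave the axis. Red marks members past the size rule, yellow those whose interval alone excludes 1, and the dotted lines mark 1.5-fold either way; most points lie near 1, and the widest bars belong to members with under 10 reads in a library.

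The order of the libraries differed with the level of the members. Of the 15 members with a mean of at least 500, EE was lowest in 10 and highest in 0, ER was lowest in 1 and highest in 9, and SH was lowest in 4 and highest in 6. Among all 8387 genes at that level, EE was lowest in 34.2% and highest in 32.6%. Under the other 3 scalings EE was lowest in 9 to 11 of the 15. The 32 members with a mean from 50 to under 500 went the other way, with EE lowest in 6 and highest in 16, against 32.6% and 34.6% of the 4999 genes in that range. Over all 47 members with a mean of at least 50, EE was lowest in 16 (34.0%, against 33.6% of all genes) and highest in 16. Above 500, the median ratio of the highest to the lowest library was 1.09 for the members and 1.06 for all genes at that level.

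Genes of the same structures that have other names, from a list of 49 of which 44 were measured, were set beside the members. In EEvSH 2 of the 44 were higher by the size rule and 0 lower, in ERvSH the counts were 1 and 1, and in ERvEE they were 0 and 1. Dynlrb2, a dynein light chain that also marks ependyma, had 24 reads in ER, 28 in EE and 11 in SH, with ratios of 2.64 (1.28 to 5.88) in EEvSH and 2.25 (1.06 to 5.08) in ERvSH. Its order over the libraries was that of Dnah5 and Cfap300, but all were compared because they passed the size rule as higher in EEvSH. The ERvEE interval included 1 for each, so the order of ER and EE was not resolved. Spef2, of the central pair, had 43.1 in ER, 60.0 in EE and 38.8 in SH, with an EEvSH ratio of 1.54 (1.01 to 2.38). Morn3, named for its MORN repeats, had 5 reads in ER, 17 in EE and 15 in SH. It was the gene past the size rule in ERvEE (0.292, 0.084 to 0.824) and the lower gene in ERvSH (0.343, 0.098 to 0.994). The 44 genes summed to 9825 in ER, 9845 in EE and 10135 in SH.

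Of 19 listed regulators of multiciliated cells, 13 were measured and 0 passed the size rule in any contrast. That is near the share of all genes that passed, which was 1.19% or less in each direction. Rfx3, an X-box binding factor that was chosen for mention after its values were seen, had 485 in ER, 403 in EE and 491 in SH. It was lowest in EE, with ratios of 0.821 (0.717 to 0.940) in EEvSH and 1.20 (1.05 to 1.38) in ERvEE. Rfx2, chosen beside it, had 206 in ER, 191 in EE and 227 in SH, and no interval that excluded 1.

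Promoters of the members were searched for the letters bound by these factors. RefSeq promoters of GRCr8 (250 bases before to 50 after each start) were matched for 55 of the 66 member symbols and searched on both strands. A short X-box site, GTTGCC, was found in 20 of the 55 (36.4%), against 13.3% of 11826 measured protein-coding genes with a promoter and 13.1% of all 27457 genes. The members had more promoters per gene (1.40 against 1.13 for the measured genes). Counted per promoter, the shares were 29.9% of 77 and 12.7% of 13340. Their promoters held less G and C than those of the measured genes (median 54.3% against 59.7%). The full X-box was searched in a strict form, GTTNCC and GGNAAC with any 2 bases between them. This form can contain the short site and reads the same on both strands. It was found in 2 of the 55 (3.64%), Dnaaf2 and Cfap298, against 0.44% of the measured genes and 0.488% of all genes. The forkhead site TGTTTAC was found in 3 (5.45%; Cfap20, Cfap43 and Tekt3), against 2.58% and 4.13%. These are matches of letters, not sites of binding. Looser forms of the X-box were not searched, so a promoter without a match may still hold one.

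The stretches around the matches are shown for the 2 promoters with a full X-box and for 3 with the short site near the start, one each for a tektin, a nexin link gene and a dynein motor. Capitals mark the match; in Drc1 it lies on the opposite strand and reads as its reverse complement. Each is read 5′ to 3′ on the strand of the gene, and all 5 genes lie on the minus strand, at chr6:93406360-93406449, chr11:43677543-43677632, chr10:57479122-57479211, chr6:31779257-31779346 and chr10:54766027-54766116 in the order shown.
Dnaaf2: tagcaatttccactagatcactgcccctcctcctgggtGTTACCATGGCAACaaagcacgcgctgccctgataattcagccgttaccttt
Cfap298: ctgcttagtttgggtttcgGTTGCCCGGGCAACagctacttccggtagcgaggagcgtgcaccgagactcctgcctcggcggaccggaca
Tekt1: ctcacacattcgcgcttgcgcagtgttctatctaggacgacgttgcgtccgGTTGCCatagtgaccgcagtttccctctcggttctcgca
Drc1: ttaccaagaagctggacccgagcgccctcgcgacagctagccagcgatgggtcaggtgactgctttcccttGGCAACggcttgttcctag
Dnah2: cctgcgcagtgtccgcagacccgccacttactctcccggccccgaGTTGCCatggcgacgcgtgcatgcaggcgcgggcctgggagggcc

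For 3 of the members that passed the size rule, the 300 bases held no match to the short X-box site, the full X-box or the forkhead site. The last part of the full X-box, GGNAAC, does stand alone in the Cfap300 stretch, as GGAAAC. For these 3 members the 90 bases just before the start are shown. They lie at chr5:61525989-61526078 on the plus strand, chr2:80711096-80711185 on the plus strand and chr8:13483609-13483698 on the minus strand.
Dnai1: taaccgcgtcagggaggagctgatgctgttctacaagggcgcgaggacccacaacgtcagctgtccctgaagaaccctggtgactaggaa
Dnah5: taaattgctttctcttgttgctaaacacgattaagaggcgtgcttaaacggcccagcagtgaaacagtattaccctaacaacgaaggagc
Cfap300: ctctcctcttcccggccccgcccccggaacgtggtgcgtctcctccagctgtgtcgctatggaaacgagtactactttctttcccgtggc
Matches stood both in members with no interval that excluded 1, such as Cfap298 and Dnaaf2, and in Drc1, which was lower in EE and in ER than in SH.

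**Figure D5:**
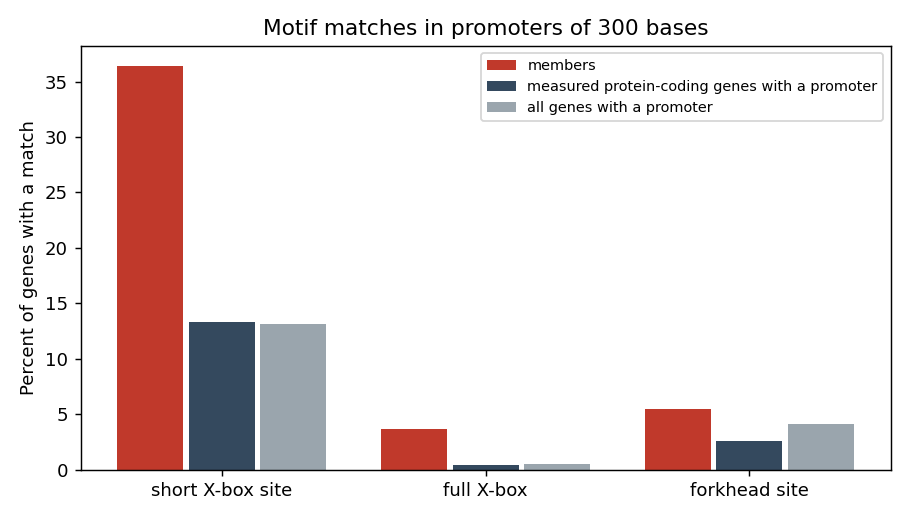
Percent of genes with a match to each motif in a promoter of 300 bases, for the 55 members with a promoter (red), the 11826 measured protein-coding genes (dark) and all 27457 genes (grey). The short X-box site stands in 36.4% of the members against 13.3% and 13.1%; the other motifs are rare in each set.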

How the data were processed

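Per the labels, RNA was taken from BLA punches with a column kit, pooled in equal parts from 10 rats per condition, selected for polyadenylated RNA and sequenced as strand-specific libraries. Per the submitters' processing notes, the authors used HISAT2 and DESeq2; no version, genome build or way of counting is given in the sources used here, so reads shared by near-identical genes (Spag6 and Spag6l) or overlapping genes are uncertain. For each gene the authors deposited a normalised signal. Within a library 100% of the values were whole multiples (within 0.001 of a read) of 1.0258 in ER, 1.0339 in EE and 0.9958 in SH, the value of 1 read, and reads were recovered on that basis.

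The members, the lists and the rules were chosen with earlier results of these data known. Groups followed the labels. With 1 library per condition no test was run and no p-value computed. Intervals cover counting error only, since reads that carry no molecular identifier need not be independent molecules. Named were members past the size rule, and those with a mean of at least 50 and an interval that excluded 1 in any contrast. The 10 with the highest mean and a set fixed whatever their values were named too. From other lists came genes past the size rule, 6 markers, and Rarres2 and Tm4sf1, which were chosen after their values were seen. Alternatives were scaling by library totals, edgeR TMM or upper quartile, other pseudocounts, filters and folds, and reduced member lists. The call rule was tested on simulated data. Levels per kilobase could not be computed because protein lengths were not used here. Python 3.11.15, numpy 2.4.6, pandas 2.3.3, scipy 1.17.1, matplotlib 3.10.9, R 4.3.3 and edgeR 4.0.16 were used.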

Additional observations from a re-analysis of the deposited data

How the results depend on the processing

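The number of members past the size rule was 4 in EEvSH, 2 in ERvSH and 1 in ERvEE. A mean of at least 50 gave 2 in EEvSH and 1 in ERvSH, a 2-fold rule gave 2, 1 and 0 in EEvSH, ERvSH and ERvEE, no minimum fold gave 12, 10 and 10, and no required interval gave 13, 10 and 10. Scaling by library totals gave 1 in ERvSH, where the Dnah5 ratio of 1.76 no longer had an interval that excluded 1; this was the 1 loss among 21 alternatives for single members. The median log2 ratio moved by less than a set tolerance under 27 of 30 alternatives. That tolerance was the distance from the middle to an end of the log2 counting interval of the summed ratio. It is not a spread of the median. In ERvSH (0.03) it was 0.0021 with a mean of at least 10 and 0.0018 with a mean of at least 50, and in ERvEE (0.01) it was -0.022 with a mean of at least 50. The summed EEvSH ratio of 0.976 was 0.955 without the genes known outside the axoneme, which lies outside its interval. Over all contrasts together, the other 14 of 15 alternatives for the summed ratio stayed within the interval of their own contrast. Counting each gene once, an alternative chosen after seeing the data, changed no count by over 1.5 times and no median beyond that tolerance. The cause of these shifts was not tested.

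No paired analysis was possible because each condition has 1 library. The 9 members with under 10 reads in a library, Dnah1 among them, have intervals so wide that most differences are not detectable at this depth.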

Other observations

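Genes of cilia that do not beat were described from lists of the same kind. Of 40 genes for intraflagellar transport and the BBSome, the carriers that move proteins along every cilium, 39 were measured and 0 passed the size rule in any contrast. They summed to 48246 scaled counts in ER, 48035 in EE and 47935 in SH, with ratios of 1.002 (0.989 to 1.01) in EEvSH and 1.007 (0.994 to 1.02) in ERvSH. Of 21 genes of the primary cilium of neurons, 19 were measured and 0 passed the size rule. In both lists 0 is near the share of all genes that passed, 1.19% or less in each direction of each contrast. In ERvSH 4 of the 19 primary cilium genes had a higher and 15 a lower value, against 8439 and 8257 of all genes. In EEvSH and in ERvEE 7 were higher and 12 lower. The interval excluded 1 in ERvSH for 0 higher and 1 lower of the 19, against 7.59% and 7.89% of all genes. In EEvSH it did so for 1 higher and 3 lower (9.27% and 8.94%), and in ERvEE for 0 and 3 (6.47% and 6.5%). These counts are too small to be set apart from those shares. The 19 genes summed to 21354 in ER, 21760 in EE and 21838 in SH, with an ERvSH ratio of 0.978 (0.959 to 0.997). Mchr1, the receptor of melanin-concentrating hormone, which sits in the primary cilium of neurons, was chosen for mention after its values were seen. It had 719 scaled counts in ER, 765 in EE and 861 in SH, with ERvSH and EEvSH ratios of 0.835 and 0.888.

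Cfap57 has a name of the rule but is listed as a processed transcript and so was not a member. It had 75.9 scaled counts in ER, 72.4 in EE and 74.7 in SH, with an EEvSH ratio of 0.969 (0.689 to 1.36).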
